A study of Gallus gallus with 4 samples.

Results

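The transcripts described here are those of the 3 globin genes HBBA, HBA1 and HBAD, 3 of the 15271 genes measured in chicken blood cells, taken by their symbols. They were followed in red cells, which numbered 123 of 12042 cells (1.02%), and at low level in all other blood cells. Red cells were defined as cells in which the scores of the 3 globins summed to 5 or more, so the globin levels of red cells are given as a description, with no test.

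Hemoglobin, the oxygen carrier of red cells, is a tetramer of alpha-type and beta-type globin chains. Adult chickens make a major form from alpha-A and beta-A chains and a minor form from alpha-D and beta-A chains, so both forms share the beta chain. HBBA encodes the adult beta-type chain, HBA1 the alpha-A chain and HBAD the alpha-D chain. Bird red cells keep their nucleus and some mRNA, and therefore can appear in a single-cell library of blood.

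Jugular blood came from clinically healthy, untreated laying hens aged 24 weeks, labelled as the hybrid Bovans Robust and named Dekalb White in the study's methods. Red cells were depleted on a Ficoll gradient, and thrombocytes with an antibody to CD41/61 coupled to magnetic particles. Each hen gave a droplet-based library of transcript 3′ ends, 4 by the labels. All libraries form 1 group, so the comparisons are between cells of the same hens. The methods also state that cells with over 5% hemoglobin transcripts were removed by computation. The number and share of red cells, their globin levels and every value relative to them therefore describe the cells left by the gradient and by this filter, and thrombocytes those left by depletion.

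Libraries 1 to 4 held 4452, 2697, 4893 and 4894 cells. Libraries 3 and 4 shared 4890 cell barcodes, of which 4864 had the same score for all 3 globins, whereas any other pair shared 1 to 9 barcodes. Library 4 was therefore left out as a copy of library 3, and n is 3 libraries. The values are scores in whole numbers, read as UMI counts that the authors had corrected to a common depth, and a cell total lay between 1577 and 3004. Levels are given as the sum of scores of a gene over a group of cells per 10000 of all scores. Since the total is set by that correction, it does not show the sequencing depth of a cell.

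In the GRCg7b assembly HBBA (gene 396485) lies on chromosome 1 at 196004356 to 196005887, among the embryonic-type genes HBE, HBE1 and HBBR. HBAD (gene 416651) lies on chromosome 14 at 12115577 to 12116504, and HBA1 (gene 416652) follows at 12118602 to 12119420, with HBZ on the other side of HBAD. No annotated gene overlaps any of the 3. HBE, HBE1, HBBR and HBZ were not analysed here. NGB, which encodes neuroglobin of nerve cells, was the only other globin measured, and a score of 1 was seen in 5 cells of library 3, none of them a red cell, and in 0 cells of libraries 1 and 2.

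The globin sum split the cells into a large low group and a small high group. It was 0 in 7967 cells, 1 in 2849, 2 in 913, 3 in 135 and 4 in 55. Above the limit it was 5 in 15 cells, 6 to 9 in 12, 10 to 19 in 11, 20 to 49 in 36 and 50 to 130 in 49. Cells just below and just above the limit of 5 thus ran into each other, whereas most red cells lay far above it, with a median sum of 41. The globins made up at most 4.77% of the total of any cell. The filter at 5% hemoglobin transcripts was applied before the depth correction, and its part in this ceiling was not tested.

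**Figure D1:**
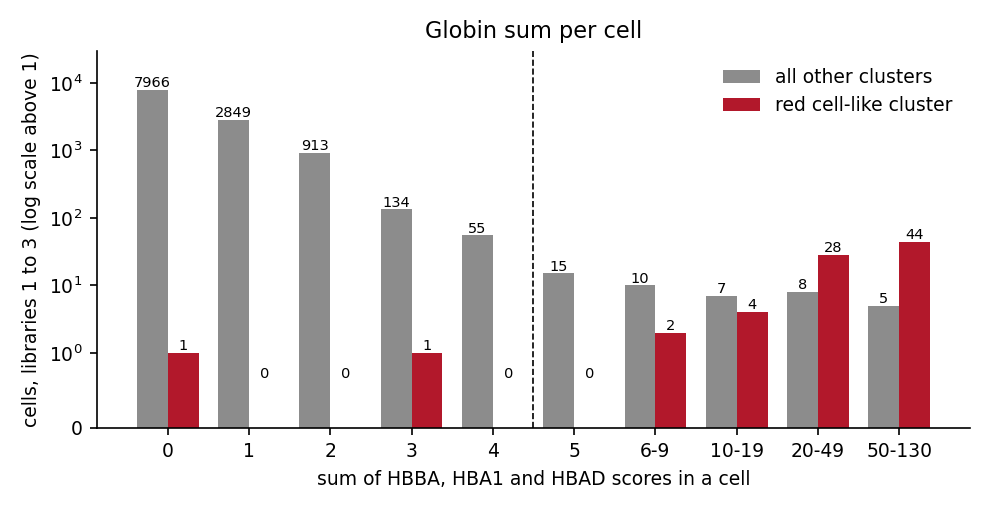
Number of cells of libraries 1 to 3 (vertical axis, log scale above 1) by the sum of the HBBA, HBA1 and HBAD scores in a cell, for the red cell-like cluster and all other clusters, with the limit of 5 as a dashed line. The red cell-like cluster has 28 and 44 cells with sums of 20 to 49 and 50 to 130, whereas most cells of other clusters are among the 7967 with a sum of 0.

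Red cells were similarly rare in the 3 libraries. They made up 1.01% of the cells of library 1 (45 of 4452, 95% Clopper-Pearson interval 0.738 to 1.35%), 1.15% of library 2 (31 of 2697, 0.782 to 1.63%) and 0.961% of library 3 (47 of 4893, 0.707 to 1.28%). These intervals overlapped and cover counting error only. The shares depend on that limit, since 12 of the 15 cells with a sum of exactly 5 were of library 3. The red cell-like cluster described below held 29, 25 and 26 cells of libraries 1, 2 and 3. The few red cells held 53.7%, 55.3% and 37.6% of all globin score of libraries 1, 2 and 3. Their median total was 1743 against 2414 in other cells, and their median number of genes was 535 to 572 per library against 1046 to 1165.5 (the latter 1161.5 in library 2).

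HBBA had the highest level of the globins in red cells. Its level was 108, 135 and 87.3 per 10000 in libraries 1, 2 and 3, a mean of 110.3 ± 24.0 (SD, n = 3). HBA1 stood at 94.7, 97.4 and 75.5 per 10000, a mean of 89.2 ± 11.97 (SD, n = 3). In every library the HBBA level was above that of HBA1, but the ranges of both overlapped across libraries. HBAD was much lower at 12.4, 13.0 and 7.57 per 10000, a mean of 10.98 ± 2.96 (SD, n = 3), and did not overlap the others. Reads from transcript 3′ ends do not scale with transcript length, and the levels were not divided by it.

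The rule counts each globin toward its own cells, so each was also described in cells in which the other 2 globins summed to 5 or more. HBBA in such cells was 117, 149 and 99.4 per 10000 in libraries 1, 2 and 3, with a median score of 21 per cell and a highest of 68. In 102 such cells HBA1 was 113, 103 and 84.6 per 10000, with a median of 18 and a highest of 89. In 116 such cells HBAD was 12.1, 12.8 and 7.15 per 10000, with a median of 1 and a highest of 17. A score of HBBA was seen in 90.6% of these cells and of HBA1 in 91.2%, whereas HBAD was at 0 in almost as many cells as it was seen, with a share of 52.6%. Library 3 had the lowest level of each globin under this rule.

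A cluster of 80 cells, drawn without the globins and without marker genes, matched most red cells. It held 78 of the red cells, while 45 lay in other clusters, and its other 2 cells had globin sums of 0 and 3. It met 4 of the 7 red cell markers measured, namely the 3 globins and SLC4A1, while HEMGN and EPB42, also red cell genes, were at 0 in all 123 red cells. RHAG was seen in library 2 alone. In this cluster HBBA was 152, 169 and 149 per 10000 (mean 156.5 ± 10.8, SD, n = 3), HBA1 was 108, 122 and 124 (117.8 ± 8.61) and HBAD was 13.5, 15.2 and 9.16 (12.6 ± 3.11). The spread between libraries was smaller here for HBBA and HBA1, with SDs of 6.92% and 7.31% of the mean against 21.7% and 13.4% in all red cells.

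Within red cells, HBBA and HBA1 varied much from cell to cell. HBBA exceeded HBA1 in 64 cells, HBA1 exceeded HBBA in 52, and 7 were equal. The ratio of HBA1 to HBBA had a median of 0.821 and quartiles of 0.382 and 1.52. All 3 globins were seen together in 59 cells, a pair of them in 54 and a lone globin in 10. The Pearson correlation of HBBA with HBA1 on the log2(score + 1) scale was 0.54 over all 123 cells (Spearman 0.49), 0.04 over the 78 cells of the red cell-like cluster (Spearman -0.05) and 0.68 over the 20 cells outside it with sums of 10 or more (Spearman 0.77). These values are a description over cells of 3 libraries that share the correction of each cell total. The filter on hemoglobin transcripts caps the sum of both genes, and the limit of 5 sets its lowest value, so neither a joint nor a separate change is read from them.

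**Figure D2:**
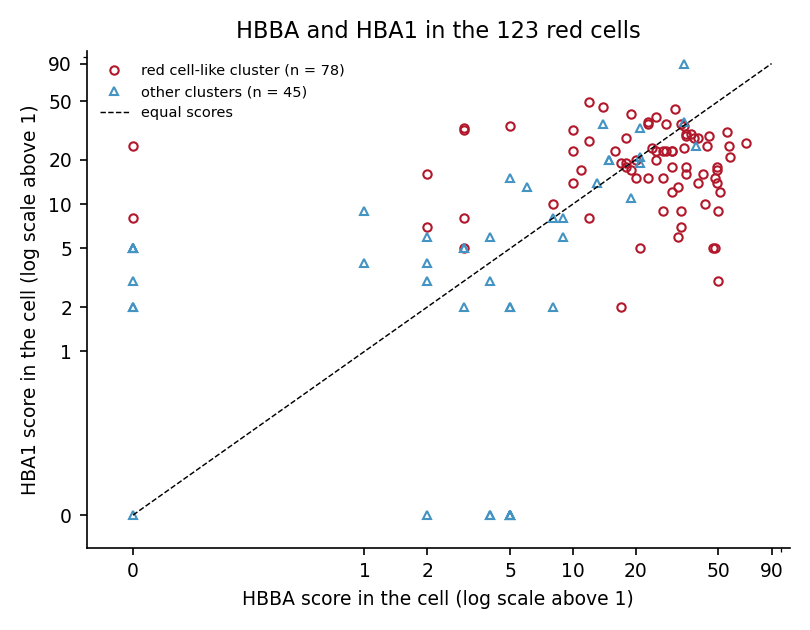
HBA1 score (vertical) against HBBA score (horizontal, both log scale above 1) in each of the 123 red cells, with circles for the 78 cells in the red cell-like cluster, triangles for the 45 in other clusters and a dashed line for equal scores. Circles spread over both sides of the line and mostly lie at scores above 10, while most triangles lie below 10.

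The 45 red cells outside that cluster fell into several leukocyte groups, and differed in globin level. Monocyte-like and thrombocyte-like groups held 8 each, CD4 T-like 6, B-like, cytolytic-like and eosinophil-like 5 each, gamma-delta T-like and proliferating-like 2 each, unnamed clusters 4, and CD8 T-like and basophil-like groups 0. Of the 45, 25 had sums of 5 to 8, a median total of 1788 and a median of 502 genes, and none of them had all 3 globins. The other 20 had sums of 10 to 130, a median total of 2673 and a median of 1336.5 genes, and 17 of them had all 3. These 20 came from libraries 1, 2 and 3 in numbers of 11, 2 and 7, and the highest globin sum of all cells, 130, was that of a monocyte-like cell of library 1 with scores of 34 for HBBA, 89 for HBA1 and 7 for HBAD.

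Other red cell transcripts were lower in the red cells outside the cluster than in those within it, and some were not seen at sums under 10. Markers of the groups they fell into were present beside them. TAL1, an erythroid transcription factor, was 22.5 per 10000 in the 78 cells of the cluster, 3.32 in the 20 cells with sums of 10 or more, 4.26 in the 25 below and 0.329 in all other blood cells. SLC4A1, the anion exchanger of the red cell membrane, was 2.90, 1.37, 0.203 and 0.0115 per 10000 in the same order. The summed monocyte markers were 51.2 per 10000 in the 8 monocyte-like red cells, 94.7 in the remaining monocyte-like cells and 3.12 in the red cell-like cluster. For B-like cells the summed B markers were 96.2, 138 and 4.64 per 10000 in the same order. Own markers were also lower than in the remaining cells in CD4 T-like (23.8 against 43.8) and cytolytic-like red cells (73.3 against 91.9). They were closer in thrombocyte-like (54.5 against 57.4) and eosinophil-like red cells (123 against 134). In gamma-delta T-like (89.2 against 83.2) and proliferating-like red cells (39.5 against 21.0), 2 cells each, they were higher. The methods state that putative doublets were removed, and the part of droplets with more than 1 cell in these 45 cells was not tested.

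Markers of other lineages were lower in the red cell-like cluster than in their own groups, but not all were near 0. Of the 4 thrombocyte markers, ITGA2B, ITGB3 and GP9 were at 0, with a summed level of 0 to 0.447 per 10000 per library against 55.8 to 63.5 in thrombocyte-like cells. Of the 6 monocyte markers, MMR1L4, CD14, LY86 and S100A12 were at 0, with a sum of 1.21 to 4.24 against 76.2 to 111.7. The 8 B markers were all seen, at 0.605 to 13.1 against 135 to 140.9. T-lineage sums were 8.26 to 13.5 for CD8 T (own group 90.9 to 108) and 2.68 to 5.72 for CD4 T (39.6 to 45.2). They were 6.48 to 10.1 for cytolytic (78.8 to 123) and 2.01 to 3.23 for gamma-delta T markers (80.0 to 89.8). Eosinophil markers summed to 1.61 to 2.90 (124 to 147), basophil markers to 4.35 to 5.36 (535 to 620) and proliferation markers to 0.893 to 3.43 (15.1 to 34.5). In all red cells thrombocyte markers were higher at 0.900 to 7.80, monocyte markers at 3.98 to 10.2 and B markers at 1.21 to 19.1. The part of such markers in the comparison of red cells with other cells was not tested.

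Some genes of the erythroid programme other than the globins were higher in red cells, while most of those tested did not pass. The list held 41 such genes, of which 29 were measured and 23 passed the filter of a mean of 0.05 per 10000 in either group. By limma with Benjamini-Hochberg adjustment, 9 of the 23 rose, 1 fell and 13 did not pass, against backgrounds of 7.7% of 10487 genes higher (808) and 18.5% lower (1940). The median log2 difference was 1.098 over the 23 genes and -0.42 over all genes tested, on the scale of log2 of the level plus 0.1. With the hen as a block, 8 rose and 1 fell, and the counts over all genes were 495 higher and 1536 lower. A gene that passed the filter only through the red cells was tested because it was high there, so these shares describe the list and are no evidence on it. SLC4A1, SPTB, ADD2 and SLC25A37, which rose, entered only in this way. So did ANK1, DMTN, RHAG and STEAP3, which did not pass. BPGM, the gene called lower, was at 0 in red cells and entered only through the other cells. The adjusted p values of these genes are a description.

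Of the erythroid transcription factors, 3 rose, and TAL1 had the largest difference of the list. TAL1 was 17.6, 11.2 and 13.6 per 10000 in red cells of libraries 1, 2 and 3 and 0.199, 0.342 and 0.438 in other cells, a log2 difference of 5.08 ± 0.29 (SE, adjusted p = 0.000800 by limma). LMO2, a partner of TAL1, was 2.36, 6.23 and 2.49 against 0.447, 0.543 and 0.521 (log2 difference 2.51 ± 0.40, adjusted p = 0.00544). ZFPM1, a cofactor of GATA1, was 1.01, 0.692 and 0.452 against 0.0960, 0.155 and 0.150 (1.76 ± 0.38, adjusted p = 0.0185). The levels of these 3 factors did not overlap between red and other cells. Nor did those of EPB42, HEMGN, PPOX and UROS, which were at 0 in red cells. The share of all genes without overlap was not counted, so this is a description. ZFPM1 did not pass with the hen as a block (adjusted p = 0.0900), without library 1 (0.0860) or without library 2 (0.102). GATA1, KLF1 and NFE2 were not analysed here.

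Membrane and skeleton genes of red cells followed. SLC4A1 was 2.48, 0.692 and 2.37 per 10000 in red cells and 0.0106, 0.00464 and 0.0162 in other cells, a log2 difference of 3.96 ± 0.53 (SE, adjusted p = 0.00284 by limma). SPTB, the erythroid beta spectrin, rose by 2.62 ± 0.32 (adjusted p = 0.00192) and ADD2, beta adducin, by 2.13 ± 0.35 (0.00595). SLC4A1, SPTB and ADD2 passed the filter on low levels only through the red cells, so these rises are a description. ADD2 did not pass without library 1 (adjusted p = 0.0519). ANK1, ankyrin, was at 0, 2.25 and 0.452 per 10000 in red cells of libraries 1, 2 and 3 and did not pass (adjusted p = 0.188), nor did DMTN, dematin, at 1.13, 1.38 and 0 (0.147, and 0.0179 without library 3). EPB41, protein 4.1, was 3.04, 4.33 and 1.92 against 1.83, 1.70 and 1.67, did not overlap, and did not pass (adjusted p = 0.135), but did with red cells at 10 or more (0.0277) or by cluster (0.0249).

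Iron and heme genes were less uniform. SLC25A37, the mitochondrial iron importer, was 3.38, 1.90 and 1.02 per 10000 in red cells against 0.0279, 0.0464 and 0.0350 in other cells, a log2 difference of 3.86 ± 0.46 (SE, adjusted p = 0.00191 by limma). It too passed the filter on low levels only through the red cells. TFRC, the transferrin receptor, was 0.675, 0.692 and 1.13 against 0.386, 0.435 and 0.480 and did not pass (adjusted p = 0.103), but did with red cells taken by cluster (0.0379). ALAD, PPOX and UROS, enzymes of heme synthesis, were at 0 in red cells and too low in other cells to be tested. ALAS2, the first enzyme of the pathway in red cells, was not analysed here.

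CA2, carbonic anhydrase, was 3.26, 0.865 and 2.60 per 10000 in red cells against 0.0903, 0.124 and 0.116 (log2 difference 3.298 ± 0.509, adjusted p = 0.00477 by limma), but did not pass without library 1 (0.0585) or library 3 (0.0699). BNIP3L, which acts in the removal of mitochondria, was 1.58, 1.90 and 1.81 against 0.679, 0.601 and 0.603 (1.35 ± 0.19, adjusted p = 0.00315). The gene called lower was BPGM, which makes a modulator of hemoglobin in mammals. It was at 0 in red cells of every library and at 0.0730, 0.121 and 0.0794 in other cells (adjusted p = 0.00302 by limma). The fitted size depends on the constant added, and BPGM passed the filter only through the other cells. At so low a level, 0 in few red cells can mean not detected, so no fall is read from it. BPGM did not pass with red cells at a sum of 3 or more (adjusted p = 0.809). Under that rule TAL1, SLC4A1, SPTB and SLC25A37 still rose and LMO2, CA2, ADD2, ZFPM1 and BNIP3L did not pass, and with red cells taken by cluster SPTB did not pass (0.139), while XPO7, a nuclear export receptor, did (0.0445, against 0.164).

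Across all genes, the 5 largest rises in red cells, the globins left out, were those of HSPA2, a heat shock protein, IFI27L2, named for its induction by interferon, MOG, OTUD1, a deubiquitinase, and SLC7A7, an amino acid transporter subunit. HSPA2 was 55.7, 33.2 and 44.2 per 10000 in red cells of libraries 1, 2 and 3 against 0.255, 0.243 and 0.304 (log2 difference 6.89 ± 0.22, adjusted p = 0.000190 by limma). The log2 difference was 6.65 for IFI27L2, 6.37 for MOG, 5.73 for OTUD1 and 5.63 for SLC7A7. H1F0, whose synonym H5 names the linker histone of nucleated red cells and which was chosen after its values were seen, was 35.9, 39.1 and 33.8 against 0.301, 0.805 and 1.01. These 6 genes did not overlap between red and other cells, but they were chosen by the size of that difference or after seeing it.

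The 5 largest falls, with the constant of 0.1 added, were those of CTSG and LDB2, both at 0 in red cells of every library, and of KCNQ1, TSHZ2 and PTPN14. CTSG and LDB2 passed the filter only through the other cells, and the size of their falls depends on that constant. With a constant of 1, CTSG (log2 difference -1.68) and LDB2 (-1.55) came behind KCNQ1 (-2.47) and TSHZ2 (-2.16). CTSG, a granule protease and a marker of the basophil-like group, was 1.61, 2.67 and 2.41 per 10000 in other cells of libraries 1, 2 and 3. LDB2, KCNQ1 and PTPN14 were among the genes most raised in a gamma-delta T-like cluster. The part of the mix of other cells in these falls was not tested. KCNQ1, a potassium channel, was 0.675, 0 and 0.565 against 4.98, 10.1 and 5.70 (adjusted p = 0.0134 by limma). KCNQ1 did not pass without library 1 (0.0652) or library 3 (0.0833), TSHZ2 without library 1 (0.160) or library 3 (0.0637), and PTPN14 without library 1 (0.0551) or library 2 (0.0646).

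The genes whose level followed a globin most closely were largely the same for each. Over 61 profiles of a cluster in a library, HBBA correlated best with RFESD (Pearson 0.91), LOC107054049 (0.91), HBA1 (0.90), HBAD (0.89) and OSGIN1 (0.88). HBA1 correlated best with LOC107054049 (0.92), RFESD (0.91), HBBA (0.90), SLC4A1 (0.89) and OSGIN1 (0.88). Among the genes closest to HBAD were HBBA (0.89), HBA1 (0.82), TDH (0.82) and RFESD (0.81). The 3 profiles of the red cell-like cluster carried these values, since over the other 58 the correlation was 0.42 for HBBA with HBA1, 0.65 for HBBA with HBAD and 0.37 for HBA1 with HBAD, and 0.13 for HBBA with OSGIN1. Profiles of a library share its cells and depth, so these values are a description.

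Outside red cells the globins were seen at a low level in every library. HBBA was 0.667, 0.828 and 0.980 per 10000 in libraries 1, 2 and 3, and was seen in 13.8% of other cells (95% Clopper-Pearson interval 12.7 to 14.8%), 17.0% (15.6 to 18.5%) and 19.6% (18.5 to 20.8%). HBA1 was 0.659, 0.686 and 0.799 per 10000, in 13.9% (12.9 to 14.9%), 14.4% (13.1 to 15.8%) and 16.4% (15.4 to 17.5%) of cells. HBAD was 0.257, 0.265 and 0.357 per 10000, in 5.401% (4.75 to 6.11%), 5.89% (5.03 to 6.85%) and 7.66% (6.92 to 8.44%) of cells. Library 3 was highest for each globin outside red cells and lowest for each within them, but in the red cell-like cluster its HBA1 level was the highest of the 3. Library 3 also held 15 of the 25 red cells with sums under 10 outside that cluster. No other cell had a score above 4 for any globin, which the limit on the sum fixes.

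In droplet libraries, RNA set free from broken cells enters all droplets, and then appears at a similar low level in cell types that do not make it. Relative to red cells, the level in other cells was 0.615%, 0.613% and 1.12% for HBBA in libraries 1, 2 and 3, and 0.695%, 0.704% and 1.06% for HBA1. For HBAD it was higher, at 2.08%, 2.04% and 4.71%, and did not overlap that of the other globins. Other genes high in red cells spanned both ranges. The relative level was 0.116 to 0.365% for RFESD, 0.427 to 0.683% for SLC4A1 and 0.457 to 0.731% for HSPA2, but 0.838 to 2.99% for H1F0, 1.13 to 3.23% for TAL1 and 0.825 to 3.44% for SLC25A37.

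Most genes of other lineages compared gave lower relative levels outside their source. Those source cells were more frequent than the red cells left by the filter on hemoglobin transcripts. The study's flow cytometry, however, found a larger share of red cells in the preparations that were sequenced. How the red cells removed by the filter bear on these levels was not tested. PAX5 and EBF1, transcription factors of B cells, stood at 0.0956 to 0.188% and 0.0975 to 0.159% of their level in B-like cells, which made up 16.2 to 21.3% of the cells. The monocyte genes MMR1L4 and LY86 stood at 0.121 to 0.256% and 0.353 to 0.397%. The thrombocyte genes ITGB3 and GP9 stood at 0.308 to 0.745% and 0.00733 to 0.0153%, and ITGB3 in library 2 was thus above HBBA. GNLY, of cytolytic cells, stood at 0.221 to 1.34% and CD3E, of T cells, at 4.62 to 6.21%, the latter above each globin in every library. Unlike for the globins, unnamed and proliferating-like cells were left out for these genes of other lineages. So were cytolytic-like cells for CD3E, and CD8 T-like and gamma-delta T-like cells for GNLY. Basophil-like cells stayed in for CD3E and CD4 T-like cells for GNLY, and the study reports these transcripts in such clusters. The CD3E and GNLY levels can thus include cells that make them. In absolute terms, each of the 3 globins was higher outside red cells than PAX5, EBF1, MMR1L4, LY86, ITGB3, GP9 and CD3E outside their source in the same library. EBF1 was at 0.04997 to 0.0827 per 10000 and CD3E at 0.177 to 0.205. GNLY was also below each globin in libraries 1 and 2 (0.170 and 0.125), but in library 3 it was above HBAD (0.550 against 0.357). How much of this globin level came from free RNA was not tested.

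The mean level of HBBA spanned a 3.70-fold range over the leukocyte groups. The range was 2.70-fold, 12.8-fold and 3.88-fold in libraries 1, 2 and 3, with the 24 proliferating-like cells lowest in library 2. HBBA was on average 1.91 ± 1.14 per 10000 (SD, n = 3 libraries) in eosinophil-like, 1.75 ± 0.46 in thrombocyte-like, 0.956 ± 0.307 in CD8 T-like, 0.937 ± 0.622 in basophil-like, 0.824 ± 0.208 in B-like and 0.807 ± 0.082 in gamma-delta T-like cells. It was 0.775 ± 0.145 in CD4 T-like, 0.686 ± 0.054 in monocyte-like, 0.658 ± 0.244 in cytolytic-like and 0.517 ± 0.318 in proliferating-like cells. Neighbours in this order differed by less than the larger of their SDs, except thrombocyte-like and CD8 T-like cells. Ordering the means keeps such steps small, so they do not show that the level was even. HBA1 lay between 0.499 ± 0.343 in proliferating-like and 1.18 ± 0.55 in eosinophil-like cells, with no step above the larger SD. HBAD lay between 0.212 ± 0.090 in cytolytic-like and 0.624 ± 0.099 in eosinophil-like cells. Thrombocyte-like cells (0.523 ± 0.045) came next, a step just above the larger SD. Another step above the larger SD led down to B-like cells (0.315 ± 0.108).

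**Figure D3:**
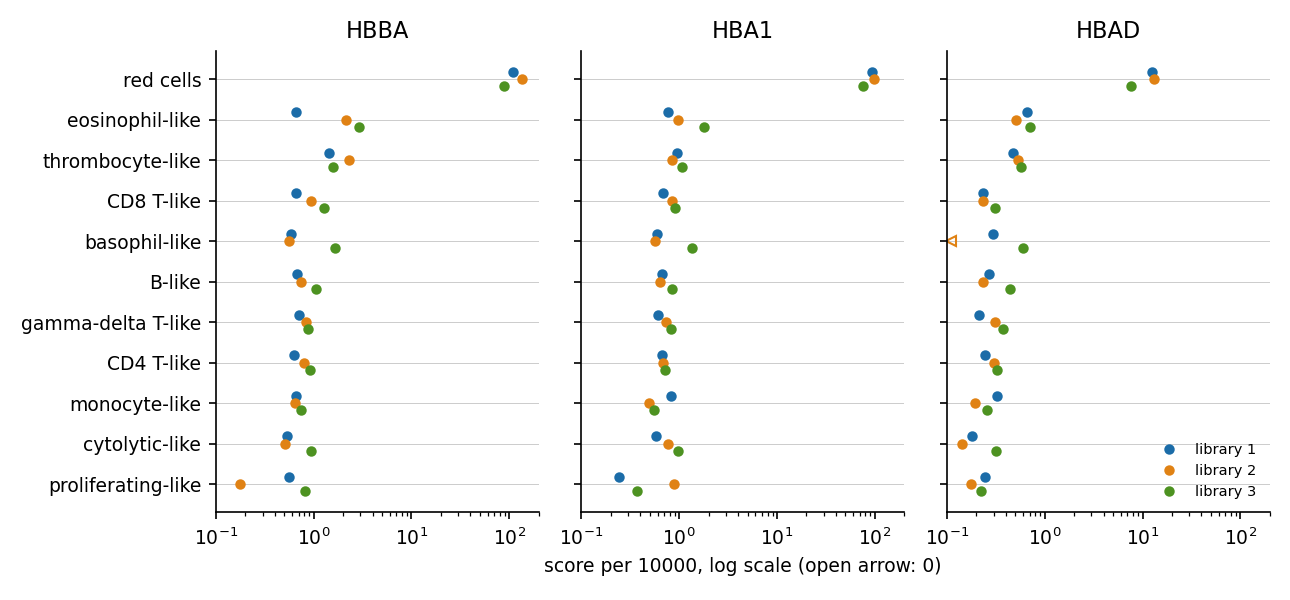
Level of HBBA, HBA1 and HBAD (score per 10000, log scale) in red cells and in 10 leukocyte groups without red cells, with a point for each of libraries 1 to 3 and an open arrow for a level of 0. Red cells lie at 7.57 to 135, and the leukocyte groups at or below 2.91.

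By a moderated F test over the 10 groups, 1 of the 3 globins differed between groups, against a background of 74.9% of 12630 genes. HBBA differed (adjusted p = 0.0236 by limma), whereas HBA1 (0.189) and HBAD (0.0900) did not pass. HBBA did not pass without library 2 (0.611) or library 3 (0.0509), and with red cells at a sum of 3 or more HBBA did not pass (0.129) whereas HBA1 did (0.0347). With the hen as a block, which the samples share by design, HBBA (0.00445) and HBAD (0.0427) both passed. A globin that did not pass was not shown to be even.

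Of the 30 contrasts of a globin in a group against the mean of the other groups, 5 passed, 3 higher and 2 lower, against a background of 28.3% of the contrasts of other genes. HBBA in thrombocyte-like cells was 1.43, 2.28 and 1.56 per 10000 in libraries 1, 2 and 3, a log2 difference of 1.02 ± 0.33 (SE, adjusted p = 0.0130 by limma). HBBA in eosinophil-like cells was 0.659, 2.16 and 2.91, a log2 difference of 0.94 ± 0.33 (adjusted p = 0.0213). HBAD in eosinophil-like cells was 0.659, 0.512 and 0.702, a log2 difference of 0.95 ± 0.31 (adjusted p = 0.0155). In library 1 HBBA of eosinophil-like cells lay within the range of the other groups, so that rise rested on libraries 2 and 3.

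Proliferating-like cells, 131 in all, were lower. HBBA was 0.564, 0.178 and 0.808 per 10000 in libraries 1, 2 and 3, a log2 difference of -0.89 ± 0.33 (SE, adjusted p = 0.0323 by limma). HBA1 was 0.242, 0.889 and 0.367, a log2 difference of -0.70 ± 0.26 (adjusted p = 0.0326). In both cases the libraries overlapped those of other groups. With the hen as a block 7 contrasts passed, now also HBA1 in eosinophil-like (adjusted p = 0.0488) and HBAD in thrombocyte-like cells (0.0415). With red cells at a sum of 3 or more, HBBA passed neither in thrombocyte-like (log2 difference 0.62, adjusted p = 0.101) nor in proliferating-like cells (0.0659). Leaving out library 1, 2 or 3, 2, 2 and 3 contrasts passed. HBBA in thrombocyte-like cells did not pass without library 1 (0.0615) or library 2 (0.176), and HBBA in eosinophil-like cells not without library 2 (0.215) or library 3 (0.136). HBAD in eosinophil-like cells did not pass without library 1 (0.143), HBBA in proliferating-like cells not without library 2 (0.503), and HBA1 there not without library 1 (0.284) or library 3 (0.254).

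The groups with more globin per 10000 were those with low cell totals. Of the thrombocyte-like cells 64.2% had a total of 2000 or less, and of the eosinophil-like cells 54.5%, against 1.05 to 5.45% in the other 8 groups. In cells of low total the smallest globin scores were missing. Among the 284 non-red cells with totals up to 1800, none had an HBBA score of 1 and 10.2% had a score of 2, whereas among the 4100 cells with totals above 2600 a score of 1 was seen in 20.4% and of 2 in 1.37%. HBBA per 10000 was 1.75 in the former and 0.854 in the latter. The share of cells with HBBA was 16.9% in thrombocyte-like and 17.6% in eosinophil-like cells, within the range of 13.0 to 27.3% over the other groups. Thinned to 1500 scores per cell, these shares were 14.9% and 16.3%, against 16.4% in the 55 basophil-like cells and 7.63 to 12.7% in the other 7 groups.

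**Figure D4:**
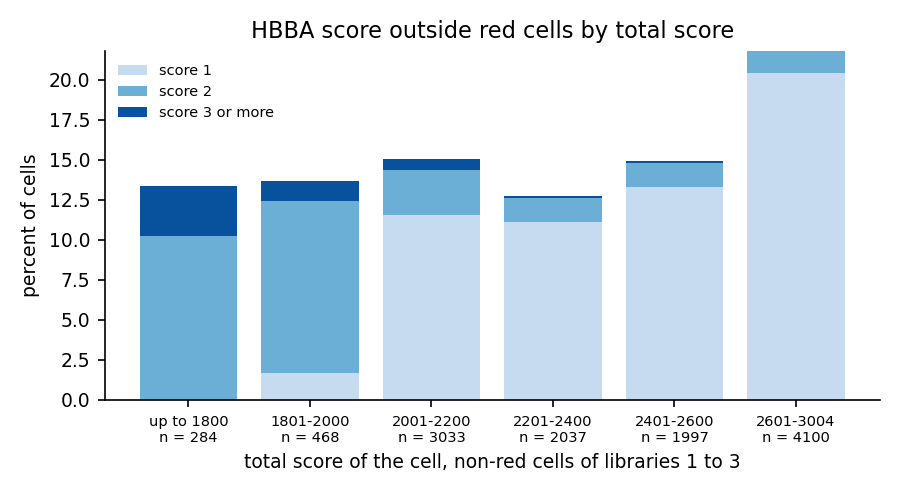
Percent of non-red cells of libraries 1 to 3 with an HBBA score of 1, 2 or 3 or more (stacked bars), by the total score of the cell, with the number of cells under each bar. A score of 1 is seen in 0% of cells with totals up to 1800 and in 20.4% of those above 2600.

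Restricted to cells with totals above 2000, a choice made after seeing the data, HBBA no longer differed between groups (adjusted p = 0.211 by limma), whereas HBA1 did (0.0116). HBBA in thrombocyte-like cells remained higher (log2 difference 1.02, adjusted p = 0.0319), as did HBAD in eosinophil-like cells (1.15, 0.00666), while HBBA in eosinophil-like cells did not pass (0.41, 0.378). HBA1 in thrombocyte-like cells changed from 0.36 (adjusted p = 0.262) to -0.35 (0.188), neither of which passed. The part of the depth correction in these differences was not tested beyond this.

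The ratio of alpha-type to beta-type globin was lower in red cells than in other cells of each library. Since the sum of the same globins separates these cells, both ratios are given as a description, with no test. The ratio of HBA1 plus HBAD to HBBA was 0.989, 0.817 and 0.951 in red cells of libraries 1, 2 and 3, a mean of 0.919 ± 0.090 (SD, n = 3). In other cells it was 1.37, 1.15 and 1.18, a mean of 1.23 ± 0.12. The values did not overlap, with a mean log2 difference of -0.43. In the red cell-like cluster the ratio was 0.798, 0.810 and 0.895, but in the 45 red cells outside it the ratio was 1.47 over all libraries, above the mean of other cells. It was 1.48 in the 20 of them with sums of 10 or more and 1.40 in the 25 with lower sums. These values pool the libraries, and the 20 cells numbered 11, 2 and 7 in libraries 1, 2 and 3. The 2 cells of library 2 had HBBA scores of 8 and 9, HBA1 scores of 2 and 6 and HBAD scores of 1 and 0. The higher ratio outside the cluster was thus not seen in those cells of library 2.

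The ratio of HBA1 to HBAD was 7.65, 7.51 and 9.97 in red cells of libraries 1, 2 and 3, a mean of 8.38 ± 1.38 (SD, n = 3), and 2.56, 2.59 and 2.24 in other cells, a mean of 2.46 ± 0.19. The values did not overlap, with a mean log2 difference of 1.76. In other cells with totals above 2000 the mean ratio was 2.48. In the 20 globin-rich cells outside the red cell-like cluster with sums of 10 or more it was 7.26, and in the 25 with lower sums 2.65, close to other cells. The part of the correction and rounding of low scores in this difference was not tested.

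**Figure D5:**
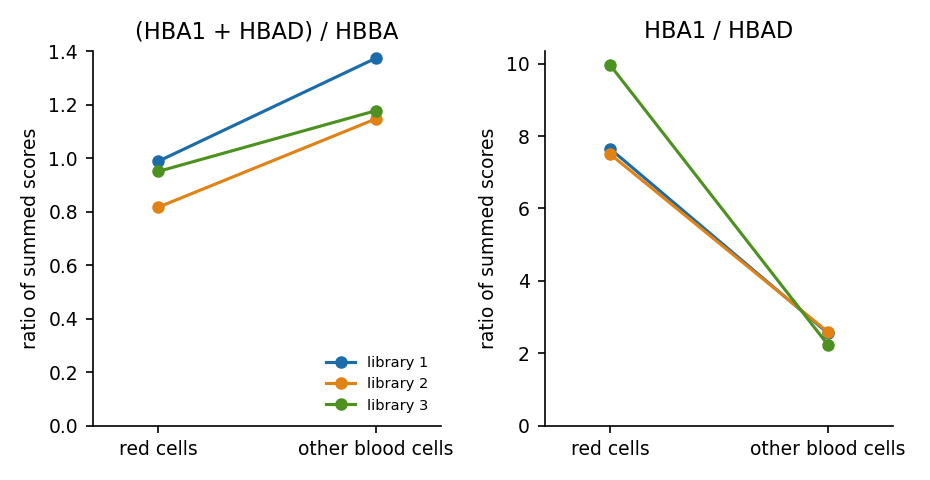
Ratio of HBA1 plus HBAD to HBBA (left) and of HBA1 to HBAD (right), from summed scores, in red cells and other blood cells, with a line for each of libraries 1 to 3 and axes from 0. The left ratio is lower in red cells in all 3 libraries (0.817 to 0.989 against 1.15 to 1.37), and the right ratio higher (7.51 to 9.97 against 2.24 to 2.59).

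Within other cells the limit on the globin sum caps HBA1 and HBAD more where HBBA is present, so their joint presence is given as values with no test. HBA1 was seen in 14.9%, 14.8% and 20.1% of HBBA-positive cells of libraries 1, 2 and 3, and in 13.7%, 14.3% and 15.6% of HBBA-negative cells. The mean difference was 2.04 ± 2.19 percentage points (SD, n = 3), higher in 3 of 3 libraries, with overlapping values. HBAD was seen in 6.77%, 7.51% and 9.58% of HBBA-positive cells and in 5.18%, 5.56% and 7.19% of HBBA-negative cells, a mean difference of 1.97 ± 0.41 points. With the limit at 3 these differences were -0.629 points for HBA1 and 0.166 points for HBAD. After thinning each cell to 1500 scores the difference for HBA1 was 0.487, -5.397 and 2.44 points and its mean -0.82, so no direction could be given for HBA1. For HBAD it was 0.706, 1.19 and 2.47 points, a mean of 1.45 ± 0.91.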

How the data were processed

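The authors counted UMIs with Cell Ranger on GRCg7b, as the methods and the submitters' processing notes state, removed doublets, poor cells and cells with over 5% hemoglobin transcripts, and corrected depth with SCTransform in Seurat. The deposited values are whole numbers, taken here as a score per gene and cell after that correction, which no file header states. Barcodes without a prefix were taken as library 1. No count model was used, since scores are not raw counts. The members and lists were chosen with earlier results of these data known.

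Scores were summed per group and library and scaled to 10000. Groups were clusters from Seurat 5.3.0 in R 4.3.3 (27 principal components, resolution 0.8) drawn without globin, erythroid and marker genes, and named where 3 markers reached 2 times the level of other cells and 5% of cells. Profiles of at least 10 cells were compared as log2(level + 0.1) with limma 3.58.1 with a trend, Benjamini-Hochberg adjustment and a threshold of 0.05. The tests were tested on simulated data. Exact permutation tests of ratios and joint presence were computed but are not given, since the globin sum that chose the cells enters them, and intervals came from scipy 1.17.1. Groups of a library come from the same hen, which makes the pairing, and deviations of the red and other profile of a library correlated by -0.05 to 0.08. Hens were separate animals. Genes named in the text are the members, NGB, the erythroid list, the 5 largest changes each way and the 5 genes most like each member, some of which are not reported here. The lists come from the symbols of the files, and 1 symbol of the erythroid list is a synonym of HBAD. Alternatives covered the pseudocount, filter, block, libraries, red cell rule, clustering, scaling, thinning and, chosen after seeing the data, cells with totals above 2000.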

Additional observations from a re-analysis of the deposited data

How the results depend on the processing

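With red cells at a sum of 3 or more in place of 5, which adds cells of low sums, erythroid genes higher in red cells fell from 9 to 4 and those lower from 1 to 0, all genes higher from 808 to 231 and all genes lower from 1940 to 33. The contrasts of globins among other cells that passed fell from 5 to 3, losing HBBA in thrombocyte-like and proliferating-like cells, and HBA1 was seen less often in HBBA-positive cells (-0.629 points). With red cells at 10 or more, or by cluster, 2 erythroid genes fell and 10 and 11 rose, and by cluster 4337 genes fell. With red cells at 10 or more, with a pseudocount of 1 or with the replicate block (hen), 2 globins differed among groups in place of 1 (the 5 contrasts at a pseudocount of 1 were all higher), and with the block 495 genes were higher. Without the filter on low values 5 erythroid genes and 4386 genes fell. Without integration 3 contrasts passed, and HBA1 in proliferating-like cells turned from -0.70 to 0.0167. Leaving out a library, erythroid genes that fell numbered 1 to 2, globins that differed among groups 0 to 1 and contrasts that passed 2 to 3. Thinning turned the difference in HBA1 by HBBA to -0.822 points. With cells of totals above 2000, HBA1 in thrombocyte-like cells turned to -0.35. The cause of these shifts was not tested. The block changed no other call on a globin or listed gene named in the report. Both globin ratios kept their direction and did not overlap under every alternative run. With 3 libraries of few red cells, low genes at 0 were not detectable at this depth, not absent.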
